A study of Homo sapiens with 8 samples.

Results

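The 40 genes described here encode integrin subunits and proteins of focal adhesions, and they were taken by gene name from the 78691 genes of the count table. They comprised 13 integrin alpha subunits, 8 beta subunits and 19 cytoplasmic or membrane partners: the integrin activators TLN1, TLN2, FERMT1 and FERMT2, the actin linkers VCL, ZYX, VASP, TNS1 and TNS3, the complex of ILK, LIMS1, PARVA and PARVB, the signaling proteins PTK2, PTK2B, SRC, BCAR1 and PXN, and CAV1. Each gene had 1 row in the table. RNA was sequenced from 8 libraries in 4 groups of 2. C4-2B, a castration-resistant prostate adenocarcinoma line, carried either an empty lentiviral vector (C4-2B control) or a lentivirus that expresses human MYCL together with EGFP from a constitutive promoter (C4-2B MYCL). NCI-H660, a neuroendocrine prostate cancer line, received a non-targeting shRNA (NCI-H660 shCtrl) or shRNA against MYCL (NCI-H660 shMYCL). The study describes more than 1 viral shRNA vector for NCI-H660, and the sources used here do not settle which of them made the sequenced cells. All cells were transduced cultures of an established line, so each group is a model of 1 tumor, and the C4-2B control libraries were labelled as biological replicates, while those of the other 3 groups were labelled only as replicates. The p-values below measure the spread between these libraries, which in those 3 groups may be technical.

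Integrins are heterodimers of 1 alpha and 1 beta subunit that bind matrix proteins outside the cell and are coupled to actin inside it. The alpha subunit largely sets the ligand: ITGA1, ITGA2, ITGA10 and ITGA11 serve collagen receptors, ITGA3, ITGA6 and ITGA7 laminin receptors, and ITGA5, ITGA8 and ITGAV receptors for fibronectin, vitronectin and other ligands with the RGD motif. Talins and kindlins (the FERMT genes) bind beta tails and switch integrins on, vinculin and tensins connect them to actin, and the kinases FAK (PTK2) and SRC signal from the site. In prostate epithelium, laminin receptors built on ITGA6 anchor cells to the basement membrane. The study examined attachment of cells that overexpress MYCL and assayed ITGB1 and ITGAV by RT-qPCR, so both are given below whatever their result.

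Library totals ran from 15177071 to 32344170 counts, with the 2 C4-2B control libraries the deepest. MYCL itself, the gene changed by design, had 371 and 320 counts in C4-2B control, 65524 and 70253 in C4-2B MYCL, 1863 and 1602 in NCI-H660 shCtrl, and 165 and 198 in NCI-H660 shMYCL. All 9 luminal markers examined had a TPM of at least 1 in every C4-2B library, and all 9 neuroendocrine markers in every NCI-H660 library. KLK3, KLK2 and FOLH1 had 0 counts in NCI-H660, and INSM1 and NCAM1 had 0 counts in C4-2B. Some markers were present in both lines. KRT8 stood at 819 and 808 TPM and KRT18 at 451 and 457 in NCI-H660 shCtrl. In C4-2B control KRT8 stood at 330 and 303 TPM, KRT18 at 328 and 325, and the neuroendocrine marker DLL3 at 5.87 and 6.07. The summed luminal markers stood at 2932 and 2908 TPM in C4-2B control and at 2282 and 2225 in C4-2B MYCL. In NCI-H660 shCtrl they stood at 1271 and 1266 TPM. The summed neuroendocrine markers stood at 1461 and 1292 TPM in NCI-H660 shCtrl and at 1026 and 1147 in NCI-H660 shMYCL. The part of these lineage shifts in the values below was not tested.

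Short stretches of promoter are shown for 6 genes that carry the results: ITGB1, the main beta subunit in both lines, ITGA6 and ITGA5, the alpha subunits that set C4-2B apart, and VCL, ZYX and TNS1, actin linkers called in at least 1 MYCL comparison. They are the 250 bases before the gene's start in RefSeq, build GRCh38.p14, written 5′ to 3′ on the gene's strand. Capitals mark CACGTG, the E-box that MYC family proteins bind together with MAX, or GGAATG, the core motif of TEAD factors, read on either strand.
ITGB1 (chr10:32958231-32958480, minus strand): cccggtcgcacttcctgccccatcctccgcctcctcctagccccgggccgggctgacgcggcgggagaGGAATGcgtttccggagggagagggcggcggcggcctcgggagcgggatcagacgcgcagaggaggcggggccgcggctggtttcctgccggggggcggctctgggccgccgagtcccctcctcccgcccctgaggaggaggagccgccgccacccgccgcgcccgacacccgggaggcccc
ITGA6 (chr2:172427086-172427335, plus strand): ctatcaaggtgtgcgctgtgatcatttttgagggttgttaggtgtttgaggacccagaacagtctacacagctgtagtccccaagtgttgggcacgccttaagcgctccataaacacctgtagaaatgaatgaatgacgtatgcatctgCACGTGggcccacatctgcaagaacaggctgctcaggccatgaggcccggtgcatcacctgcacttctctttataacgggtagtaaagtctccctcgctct
ITGA5 (chr12:54419267-54419516, minus strand): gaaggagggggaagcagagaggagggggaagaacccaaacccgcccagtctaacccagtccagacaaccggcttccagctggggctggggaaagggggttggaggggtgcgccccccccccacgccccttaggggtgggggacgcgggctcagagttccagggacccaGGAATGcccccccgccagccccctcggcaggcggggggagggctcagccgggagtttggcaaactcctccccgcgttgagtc
VCL (chr10:73997866-73998115, plus strand): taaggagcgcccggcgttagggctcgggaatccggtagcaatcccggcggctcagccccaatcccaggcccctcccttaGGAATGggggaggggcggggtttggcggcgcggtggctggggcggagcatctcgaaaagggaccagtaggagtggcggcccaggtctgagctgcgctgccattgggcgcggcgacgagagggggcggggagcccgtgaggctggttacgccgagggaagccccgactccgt
ZYX (chr7:143381095-143381344, plus strand): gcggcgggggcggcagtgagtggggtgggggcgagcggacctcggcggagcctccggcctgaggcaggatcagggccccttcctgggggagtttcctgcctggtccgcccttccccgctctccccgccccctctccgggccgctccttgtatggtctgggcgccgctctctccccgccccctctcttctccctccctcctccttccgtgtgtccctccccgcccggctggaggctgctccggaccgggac
TNS1 (chr2:218010276-218010525, minus strand): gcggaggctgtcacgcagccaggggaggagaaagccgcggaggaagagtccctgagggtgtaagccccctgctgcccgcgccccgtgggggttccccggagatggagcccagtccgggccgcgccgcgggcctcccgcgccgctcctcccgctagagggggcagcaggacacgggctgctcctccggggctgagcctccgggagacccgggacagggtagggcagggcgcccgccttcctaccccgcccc
Promoter windows of 300 bases, from 250 before to 50 after the start, were found for 29 of the 40 genes. CACGTG lay in 2 of them (6.9%), those of ITGA6 and ILK, against 7.43% of all 27305 promoters in the table. GGAATG lay in 4 (13.8%), those of ITGB1, ITGA5, VCL and ITGA10, against 14% of all promoters. Neither share stood apart from that of all genes, and the windows of ZYX and TNS1 held neither word. A match describes these letters in this window and no binding was measured.

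Transcript levels were first compared per length, in TPM, which allows 1 gene to be set against another. ITGB1, the beta subunit shared by most alpha subunits, dominated in both lines, at 214 and 224 TPM in C4-2B control and at 557 and 492 TPM in NCI-H660 shCtrl. On log2(TPM + 1) the median of all genes tested was itself 0.57 higher in NCI-H660 shCtrl, and the lines are compared below on counts. ITGB1 made up most of the beta subunit TPM. It made up between 92.0% and 93.5% of all beta subunit TPM in each group mean, followed by ITGB5 at 4.09% to 6.25%. The alpha subunits differed far more between the lines. In C4-2B control, ITGA6 held 31.9% ± 0.173 (SD, n = 2) of the summed alpha TPM, ITGAV 28.5% ± 1.45 and ITGA5, the fibronectin receptor subunit, 20.9% ± 0.551. In NCI-H660 shCtrl, ITGAV held 30.9% ± 3.66, ITGA7, a laminin receptor subunit best known from muscle, 30.5% ± 4.35 and ITGA3, another laminin receptor subunit, 17.7% ± 1.25. ITGA7 held only 0.269% in C4-2B control and ITGA5 only 0.27% in NCI-H660 shCtrl. ITGAV was thus a leading alpha subunit in both lines, beside a different laminin receptor subunit in each.

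**Figure D1:**
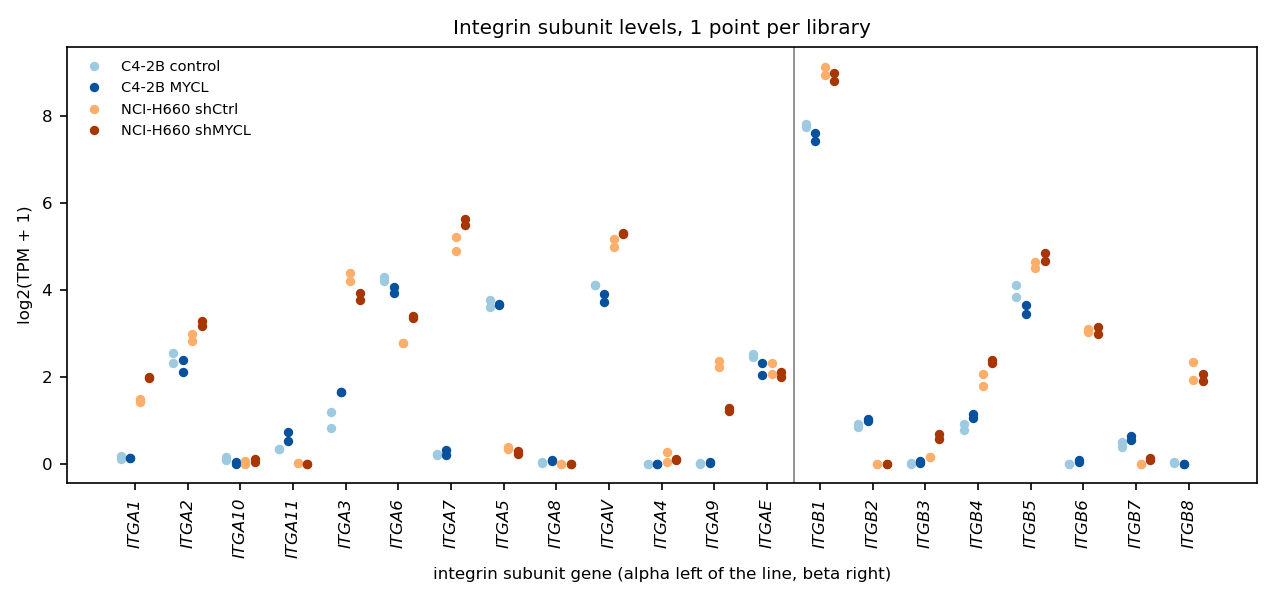
Level of each integrin subunit gene on the vertical axis as log2(TPM + 1), with 1 point per library colored by group and alpha subunits left of the line. ITGB1 is highest in all 8 libraries, while ITGA7, ITGA9, ITGB6 and ITGB8 lie near 0 in C4-2B and ITGA5 lies near 0 in NCI-H660.

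With MYCL changed, the ranking within each line kept its 2 leading alpha subunits. In C4-2B MYCL, ITGA6 held 29.9% ± 0.193 and ITGAV 26.2% ± 0.829 of alpha TPM, and ITGA3 held 4.31% ± 0.341 against 1.79% ± 0.544 in the control. In NCI-H660 shMYCL, ITGA7 held 37.3% ± 1.62 and ITGAV 31.1% ± 1.15, while ITGA3 held 10.9% ± 0.68 and ITGA9 1.1% ± 0.0333, against 3.69% ± 0.425 for ITGA9 in shCtrl. Within each line, ITGA3 therefore took the larger share in the group with higher MYCL. Across the lines this did not hold, since its share was lower in C4-2B MYCL than in either NCI-H660 group. The summed alpha TPM was 54.7 and 58.6 in C4-2B control, 52.4 and 47.3 in C4-2B MYCL, 103.6 and 107.2 in NCI-H660 shCtrl, and 125.1 and 120.6 in NCI-H660 shMYCL. The same sums were also taken as TMM-normalized CPM (counts scaled to library size). In C4-2B control they were 269.2 and 283.5, and in C4-2B MYCL 270.3 and 260.6. NCI-H660 shCtrl had 325 and 344.8, and NCI-H660 shMYCL 392.1 and 377.9. The relative gap between the control lines was thus smaller in CPM than in TPM. The shares and sums are a description with no test.

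**Figure D2:**
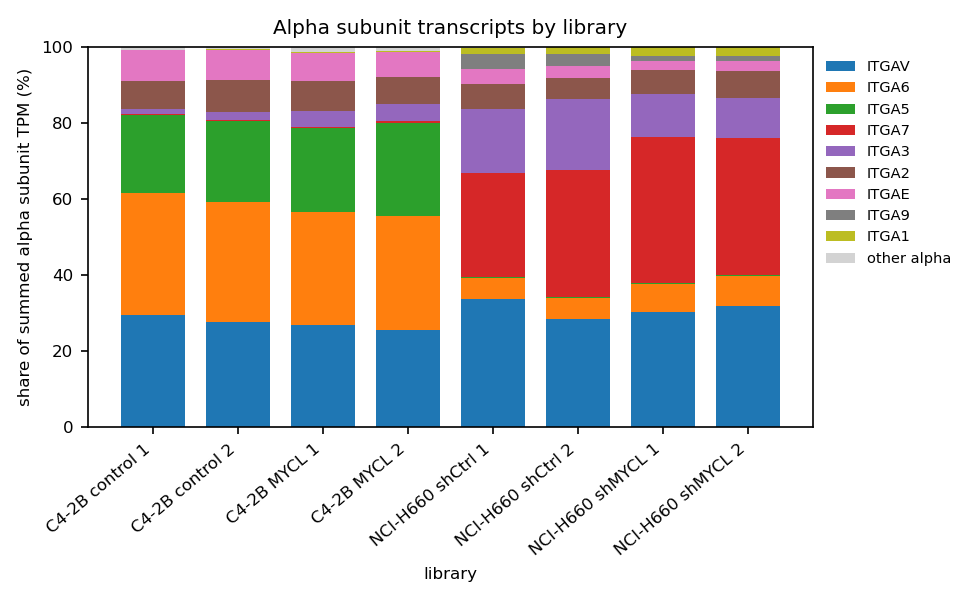
Share of each alpha subunit in the summed alpha subunit TPM (vertical axis, percent) in each of the 8 libraries, as stacked bars. ITGA6 and ITGA5 fill about as much of the C4-2B bars as ITGA7 and ITGA3 do of the NCI-H660 bars, and ITGAV is large in all.

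The control cells of both lines were set against each other with the quasi-likelihood test of edgeR on the counts, printed here as TMM-normalized CPM (counts scaled to library size). A gene was called when its Benjamini-Hochberg adjusted p over all genes was under 0.05 and its log2 fold change reached 0.5 in either direction. Line, vector and culture medium differ together in this comparison and cannot be told apart, nor can fewer cells of a kind and less RNA per cell in bulk RNA. Of the 34 members tested, 15 were called higher in NCI-H660 (37.4% of all 18748 genes were) and 12 lower (34.2% of all genes). Together the 27 calls compare with 71.6% of all genes. On the adjusted p alone, 17 members were higher (41.4% of all genes) and 12 lower (38.2%), 29 in all (79.6%). The median log2 fold change was 0.27 over the members and 0.04 over all genes. As a share of the members tested these calls were near those of all genes, so the comparison describes which adhesion genes each line uses and not an excess of differences among them.

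Among the alpha subunits, ITGA7 stood at 0.394 and 0.403 CPM in C4-2B control and at 62.8 and 83.7 in NCI-H660 shCtrl, a log2 fold change of 7.51 (SE 0.23, adjusted p = 7.91e-11). ITGA5 ran the other way, from 40.6 and 44.8 CPM in C4-2B to 0.674 and 0.616 in NCI-H660, a log2 fold change of -6.04 (SE 0.20, adjusted p = 1.19e-10). ITGA9, which pairs with ITGB1 in receptors for tenascin and VCAM1, had 297 and 328 counts in NCI-H660 shCtrl where C4-2B control had 2 and 0. Its ratio was 442 (95% interval 122 to 3660 by exact counting error). ITGA11, a collagen receptor subunit, had 32 and 32 counts against 1 and 1, and was 22.6 times higher in C4-2B (95% interval 6.01 to 191). ITGA1 and ITGA3 were also called higher in NCI-H660 and ITGA6 lower, with log2 fold changes of 3.59, 3.65 and -2.22. ITGAE, the subunit that binds E-cadherin with ITGB7, was called lower, at 14.0 and 14.5 CPM in C4-2B against 7.81 and 6.52. The libraries of the 2 lines did not overlap for any of these 8 genes. The same held for VASP, TLN1, ITGAV and ILK, which were not called, while ITGA2, ITGB5 and VCL overlapped. The share of genes without overlap was not counted over all genes, so non-overlap adds no support to a call.

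Among the beta subunits, ITGB6 and ITGB8, both partners of ITGAV, split the lines as well. ITGB6 had 0 counts in both C4-2B control libraries and 296 and 368 in NCI-H660 shCtrl, so it was at least 132-fold higher there, taking 3 counts as the limit of a library at 0. ITGB8 had 1 and 1 counts against 364 and 290, a ratio of 463 (95% interval 128 to 3830). Both form receptors that activate latent TGF-beta when joined to ITGAV. ITGB2, the leukocyte integrin subunit, had 56 and 45 counts in C4-2B control and 0 in both NCI-H660 shCtrl libraries, at least 11.4-fold lower in NCI-H660. ITGB7, a partner of ITGAE and ITGA4, had 20 and 20 counts against 0 and 0, at least 4.61-fold lower. Without strand, reads of ITGB7 cannot be told from those of the overlapping gene ZNF740, which covers 42.3% of its exon bases. ITGB1 was called higher in NCI-H660, at 1067 and 1013 CPM against 662 and 685 (log2 fold change 0.63, SE 0.08, adjusted p = 1.83e-05), and ITGB4 with a log2 fold change of 1.26. ITGB5, also a partner of ITGAV, was not called, at 35.9 and 39.5 CPM in C4-2B and 34.1 and 43.3 in NCI-H660, with overlapping libraries.

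Some partner genes were set beside a relative in pairs named for their role, and such pairs were not counted over all genes. In mean TPM, TLN1 exceeded TLN2, FERMT2 exceeded FERMT1 and PTK2 exceeded PTK2B in both control groups. PARVB exceeded PARVA in C4-2B control, and PARVA exceeded PARVB in NCI-H660 shCtrl. TNS1, a tensin that links integrin tails to actin, stood at 1.44 and 1.93 CPM in C4-2B control and at 124.8 and 127.6 in NCI-H660 shCtrl (log2 fold change 6.25, SE 0.14, adjusted p = 9.99e-12). TLN2, the second talin, stood at 0.427 and 0.852 CPM against 18.5 and 16.9 (log2 fold change 4.84, SE 0.29, adjusted p = 1.83e-08), while TLN1, the common talin, had a log2 fold change of 0.41 and was not called. The kindlin FERMT2 was called higher in NCI-H660 and its epithelial relative FERMT1 lower, with log2 fold changes of 1.54 and -2.19. The same split held for the kinases and for the parvins. PTK2 was called higher in NCI-H660 with a log2 fold change of 2.14, and its relative PTK2B lower, at 55.2 and 57.9 CPM against 6.35 and 6.83 (log2 fold change -3.10, SE 0.13, adjusted p = 7.37e-10). PARVA was called higher with 1.77, and PARVB lower, at 40.8 and 42.9 CPM against 7.24 and 8.73 (log2 fold change -2.39, SE 0.14, adjusted p = 1.39e-08).

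SRC and LIMS1 were called higher in NCI-H660, and the adaptor genes PXN and BCAR1 and the actin linker ZYX lower, with log2 fold changes between -2.16 and 0.93. The 7 members tested and not called, ITGA2, ITGAV, ITGB5, TLN1, VCL, VASP and ILK, had log2 fold changes between -0.26 and 0.41. ITGAV and TLN1 were among them with adjusted p = 0.00104 and 0.000741, under the fold minimum. ITGA10, ITGA8, ITGA4, ITGB3, TNS3 and CAV1 were too low to test, with at most 18 counts in any of these libraries. By limma on log2(TPM + 1), which moved the all-gene median to 0.57, 20 members were called higher and 8 lower, and after centring each library on its median, an alternative chosen after the data were seen, 14 and 9. Mitochondrial genes took 9.67% and 9.63% of counts in C4-2B control and 3.52% and 3.50% in NCI-H660 shCtrl, and the part of this in these differences was not tested.

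In C4-2B cells with MYCL, ITGA3, ITGB4, FERMT2, ZYX, TNS1 and CAV1 were higher and the kindlin FERMT1 was lower than in the control, while ITGB1 and ITGAV were not called. Of the 32 members tested, 6 were called higher in C4-2B MYCL than in control (11.8% of all 16866 genes tested were), and 1 lower (8.12% of all genes). On the adjusted p alone 11 passed, against 35.0% of all genes. The median log2 fold change was 0.12 over the members and -0.0017 over all genes. The called genes were 2 of the 13 integrin subunits tested, ITGA3 and ITGB4, both parts of laminin receptors, and 5 partners.

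FERMT1 (chr20:6074845-6123214, minus strand, hg38), the kindlin of epithelia, stood at 29.5 and 29.2 CPM in control and at 14.2 and 14.8 in MYCL cells. Its level fell by 1.02 on the log2 scale (SE 0.10, adjusted p = 0.000145). It was called in all 16 alternative settings, and no MYCL library came near a control library. FERMT2, the more widely expressed kindlin, stood at 29.4 and 30.4 CPM in control and at 43.1 and 42.5 in MYCL cells, a log2 fold change of 0.52 (SE 0.08, adjusted p = 0.00168). Per length, FERMT1 went from 7.84 and 7.73 TPM in the control to 3.54 and 3.42 in MYCL cells, and FERMT2 from 11.3 and 11.9 to 15.6 and 14.4. The FERMT2 call was lost in 7 of 16 alternatives. Its value lay just over the fold minimum and came to 0.48 without control replicate 1, under it. TLN1, the main talin, stood at 126.7 and 132.0 CPM against 107.7 and 104.7 (log2 fold change -0.28, adjusted p = 0.0138) and was not called.

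Both called integrin subunits belong to laminin receptors. ITGA3 (chr17:50055968-50090481, plus strand) stood at 3.01 and 4.66 CPM in control and at 8.89 and 9.44 in MYCL cells, a log2 fold change of 1.27 (SE 0.24, adjusted p = 0.00359). ITGB4 (chr17:75721328-75757818, plus strand), the partner of ITGA6 in hemidesmosomes, stood at 3.17 and 3.91 CPM against 5.75 and 5.55, a log2 fold change of 0.68 (SE 0.23, adjusted p = 0.0477). The groups did not overlap for either gene, nor for ITGB1 and ITGAV, which were not called. The ITGB4 call was lost in 11 of 16 alternatives, among them each omission of 1 library: its log2 fold change was 0.52 without control replicate 1, 0.83 without control replicate 2, 0.66 without MYCL replicate 1 and 0.70 without MYCL replicate 2. ITGA6, the alpha subunit with the highest TPM in these cells, lay at 81.8 CPM (SD 0.835) in the control and 75.6 (SD 0.863) in MYCL cells (log2 fold change -0.11, 95% interval -0.28 to 0.05, adjusted p = 0.25). In CPM, which takes no account of gene length, ITGAV lay higher, at means of 91.9 and 82.1.

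ITGB1 (chr10:32887273-33005792, minus strand) stood at 619.8 and 642.4 CPM in control and at 589.9 and 561.9 in MYCL cells. Both MYCL libraries lay under both control libraries, with a log2 fold change of -0.13 (SE 0.07, 95% interval -0.29 to 0.03, adjusted p = 0.175). ITGAV (chr2:186590010-186680901, plus strand) stood at 91.9 and 91.9 CPM against 85.4 and 78.8, a log2 fold change of -0.16 (SE 0.08, 95% interval -0.33 to 0.0072, adjusted p = 0.125). Without MYCL replicate 2 the ITGAV value was -0.11. Neither was called, and both intervals hold 0. By limma on log2(TPM + 1), which moved the all-gene median to -0.14, ITGB1 gave -0.27 with adjusted p = 0.0364, and -0.12 once libraries were centred on their medians. Over all alternatives the adjusted p of ITGB1 ran from 0.0364 to 0.583, and the value stayed negative. The other alpha and beta subunits tested, ITGA1, ITGA2, ITGA11, ITGA5, ITGAE, ITGB2, ITGB5 and ITGB7, were not called. ITGA11 had the largest value among them, at 0.983 and 1.34 CPM against 2.93 and 1.94 (log2 fold change 1.07, adjusted p = 0.0535).

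The other 3 increases were those of CAV1 and of 2 of the 5 actin linkers. ZYX (zyxin, chr7:143381295-143391111, plus strand), a protein of tensed actin fibers, stood at 28.4 and 35.5 CPM in control and at 52.4 and 50.3 in MYCL cells (log2 fold change 0.69, SE 0.11, adjusted p = 0.00172). TNS1 (chr2:217799588-218033982, minus strand) stood at 1.35 and 1.81 CPM against 4.99 and 4.80 (log2 fold change 1.64, SE 0.28, adjusted p = 0.00235). For both genes the MYCL libraries lay above the controls. VCL stood at 190.0 and 199.1 CPM against 224.7 and 200.5 (log2 fold change 0.13, adjusted p = 0.241), and VASP and TNS3 were not called. CAV1, the coat protein of caveolae, reached 9 and 10 counts in the MYCL libraries, where the controls held 3 and 0. This is a ratio of 9.93 with a 95% interval of 2.92 to 52.4 by counting error, on a level barely above detection. The fitted log2 fold change of CAV1 was 3.22 (adjusted p = 0.0267), 6.41 without control replicate 1, where the only control library left had 0 counts, and 2.45, not called, without control replicate 2.

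None of the 4 genes of the ILK complex and none of the 5 signaling genes was called. ILK and LIMS1, whose proteins bind each other, had opposite values under the fold minimum: ILK stood at 48.9 and 48.7 CPM against 64.2 and 65.4 (log2 fold change 0.41, adjusted p = 0.0033) and LIMS1 at 83.8 and 84.3 against 65.0 and 63.8 (log2 fold change -0.39, adjusted p = 0.00361). Without strand, reads of ILK cannot be told from those of TAF10, which lies on the opposite strand over 68.1% of its exon bases. PTK2, encoding FAK, stood at 104.9 and 111.8 CPM against 145.3 and 144.7 (log2 fold change 0.42, adjusted p = 0.00224), also under the minimum. TLN2 stood at 0.400 and 0.798 CPM against 0.976 and 1.37 (log2 fold change 0.99, adjusted p = 0.17). PARVA, PARVB, PTK2B, SRC, BCAR1 and PXN had log2 fold changes between -0.14 and 0.14. ITGA10, ITGA7, ITGA8, ITGA4, ITGA9, ITGB3, ITGB6 and ITGB8 were not tested, with at most 14 counts in a library.

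**Figure D3:**
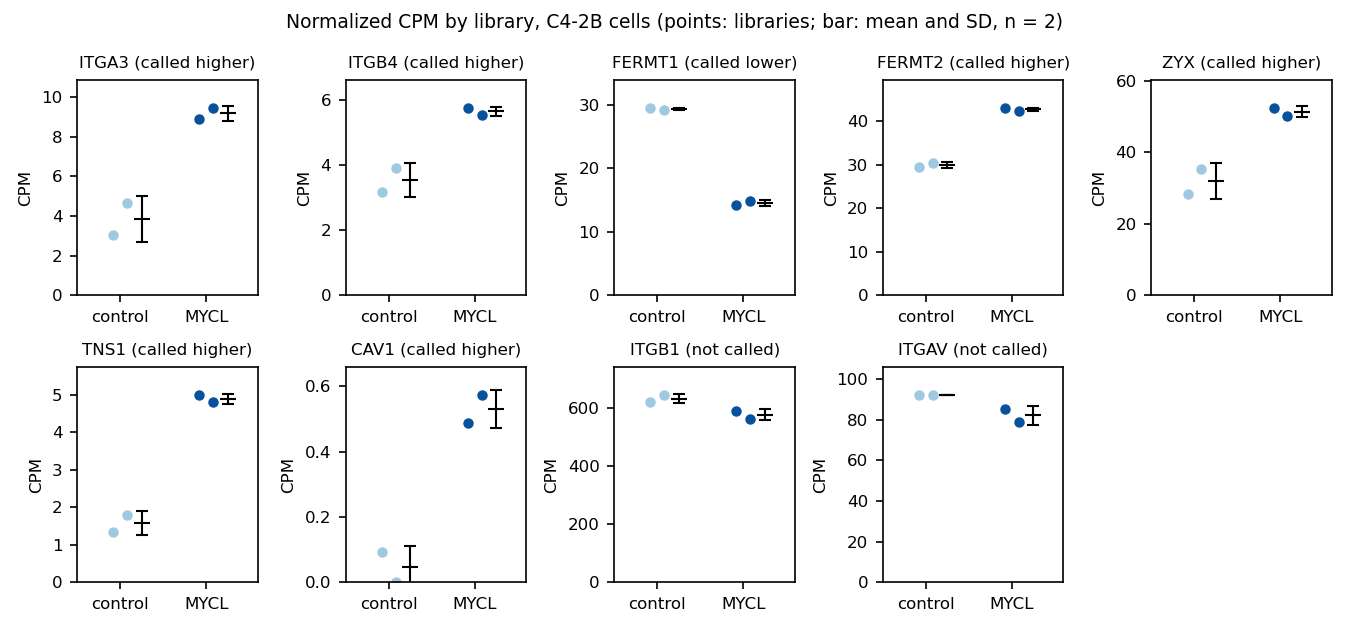
Normalized CPM (vertical axis, from 0) in the 2 control and 2 MYCL libraries of C4-2B for the 7 members called and for ITGB1 and ITGAV, with points for libraries and a bar for mean and SD. FERMT1 drops to about the level of 14.5 CPM while ITGA3, ITGB4, FERMT2, ZYX, TNS1 and CAV1 lie higher in both MYCL libraries.

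The count of 6 differed by setting: with limma on log2(TPM + 1), which tested 24 members, 2 were called higher and 1 lower. On centred values the counts were also 2 and 1. TNS1 and CAV1 lay under 1 TPM in every C4-2B library and were not tested in these settings. The summed basal epithelial markers analysed stood at 0.849 and 1.25 TPM in control and at 3.56 and 3.04 in MYCL cells, with KRT5 at 0 counts in all 4 libraries, and their part in the rise of ITGB4 and ITGA3 was not tested.

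In NCI-H660 cells with MYCL lowered, ITGA1, ITGA6, ITGB3, ITGB4, VCL, ZYX and BCAR1 were higher and ITGA9, TLN2, FERMT1 and TNS1 lower. Of the 32 members tested, 7 were called higher in shMYCL (7.18% of all 16980 genes tested were) and 4 lower (8.99% of all genes). On the adjusted p alone 15 passed, against 24.8% of all genes. The median log2 fold change was 0.13 over the members and -0.0029 over all genes. The 11 called members were 5 integrin subunits and 6 partners.

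ITGA9 (chr3:37452115-37823507, plus strand) had the largest decrease, from 17.5 and 17.7 CPM in shCtrl to 6.65 and 6.13 in shMYCL. The level fell by 1.46 on the log2 scale (SE 0.17, adjusted p = 1.91e-05), with no overlap between the groups. The antisense gene ITGA9-AS1 shares 9.23% of its exon bases. ITGA1, a collagen receptor subunit, rose from 10.6 and 12.0 CPM to 19.4 and 18.8 (log2 fold change 0.76, SE 0.15, adjusted p = 0.00179). ITGA6 (chr2:172427354-172506459, plus strand) rose from 19.0 and 20.4 CPM to 30.7 and 31.6 (log2 fold change 0.66, SE 0.13, adjusted p = 0.00146). Both genes had knockdown libraries well above the controls.

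Its partner ITGB4 stood at 8.02 and 10.9 CPM in shCtrl and at 14.0 and 13.2 in shMYCL (log2 fold change 0.52, SE 0.18, adjusted p = 0.0428). That call was lost in 10 of 16 alternatives, with log2 fold changes of 0.33 without shCtrl replicate 1, 0.49 without shMYCL replicate 1 and 0.57 without shMYCL replicate 2. ITGB3, the partner of ITGAV in the vitronectin receptor, had 6 and 7 counts in shCtrl and 30 and 27 in shMYCL, a log2 fold change of 2.31 (SE 0.52, adjusted p = 0.00468). ITGB3 stayed far below the other partners of ITGAV, at 0.597 and 0.486 TPM after knockdown against 27.5 and 24.2 for ITGB5. Without shMYCL replicate 1 its value was 2.22 and not called, and a protein-coding readthrough gene on the same strand shares 33.2% of its exon bases.

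ITGB1 stood at 1121 and 1068 CPM in shCtrl and at 919.4 and 1011 in shMYCL (log2 fold change -0.18, SE 0.11, 95% interval -0.40 to 0.04, adjusted p = 0.229), and -0.10 without shMYCL replicate 1. ITGAV stood at 142.1 and 131.9 CPM against 157.2 and 156.3 (log2 fold change 0.19, SE 0.10, 95% interval -0.02 to 0.41, adjusted p = 0.184). Neither was called. The other laminin receptor subunits lay under the fold minimum and in opposite directions. ITGA3 stood at 47.8 and 58.1 CPM against 40.8 and 35.6 (log2 fold change -0.47, adjusted p = 0.0137), and ITGA7 at 66.0 and 88.3 against 114.1 and 103.8 (log2 fold change 0.50, adjusted p = 0.0103). ITGA2 had a log2 fold change of 0.36 (adjusted p = 0.0349). ITGA5, ITGAE, ITGB5, ITGB6 and ITGB8 were not called, and the libraries overlapped for ITGAE, ITGB6 and ITGB8.

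Among the activators, TLN2 fell from 19.4 and 17.9 CPM to 12.0 and 11.3 (log2 fold change -0.68, SE 0.15, adjusted p = 0.00364). FERMT1 stood at 8.50 and 5.95 CPM in shCtrl and at 4.54 and 4.34 in shMYCL (log2 fold change -0.70, SE 0.24, adjusted p = 0.0465). Its shCtrl libraries differed from each other by more than the lower of them differed from the knockdown. The FERMT1 call was lost in 9 of 16 alternatives, with -0.42 without shCtrl replicate 1, -0.72 without shMYCL replicate 1 and -0.66 without shMYCL replicate 2. FERMT2 stood at 102.4 and 93.0 CPM against 133.0 and 133.5 (log2 fold change 0.45, adjusted p = 0.00556), under the fold minimum, and TLN1 had -0.17 (adjusted p = 0.255).

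The actin linkers moved in both directions. VCL (chr10:73995193-74121363, plus strand), vinculin, rose from 228.6 and 209.4 CPM to 318.8 and 310.5 (log2 fold change 0.52, SE 0.10, adjusted p = 0.00182). ZYX rose from 14.3 and 16.3 CPM to 23.6 and 21.6 (log2 fold change 0.56, SE 0.14, adjusted p = 0.00846). TNS1 fell from 131.1 and 134.5 CPM to 83.0 and 74.5 (log2 fold change -0.75, SE 0.11, adjusted p = 0.000121). All 3 had groups that did not overlap, as had TLN1 and PTK2, which were not called. VCL gave 0.46, under the fold minimum, without shCtrl replicate 2, and ZYX lost its call without shCtrl replicate 1 (0.48) and without shMYCL replicate 1 (0.51). VASP stood at 21.7 and 27.4 CPM against 18.7 and 18.7 (log2 fold change -0.39, adjusted p = 0.0555).

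Of the signaling genes, BCAR1, encoding the adaptor p130Cas, rose from 16.4 and 17.5 CPM to 24.2 and 24.2 (log2 fold change 0.51, SE 0.13, adjusted p = 0.01). The value lay at the fold minimum, and the call was lost without shCtrl replicate 1 (0.47), without shMYCL replicate 1 (0.52) and without shMYCL replicate 2 (0.51). PTK2, the most abundant kinase of the set, stood at 543.4 and 532.6 CPM against 552.3 and 567.4 (log2 fold change 0.06, 95% interval -0.16 to 0.27, adjusted p = 0.723). PTK2B, SRC and PXN had log2 fold changes of 0.25, 0.26 and 0.33 and were not called. None of ILK, LIMS1, PARVA and PARVB was called, with values between -0.23 and 0.26. ITGA10, ITGA11, ITGA8, ITGA4, ITGB2, ITGB7, TNS3 and CAV1 were not tested, with at most 13 counts in a library.

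**Figure D4:**
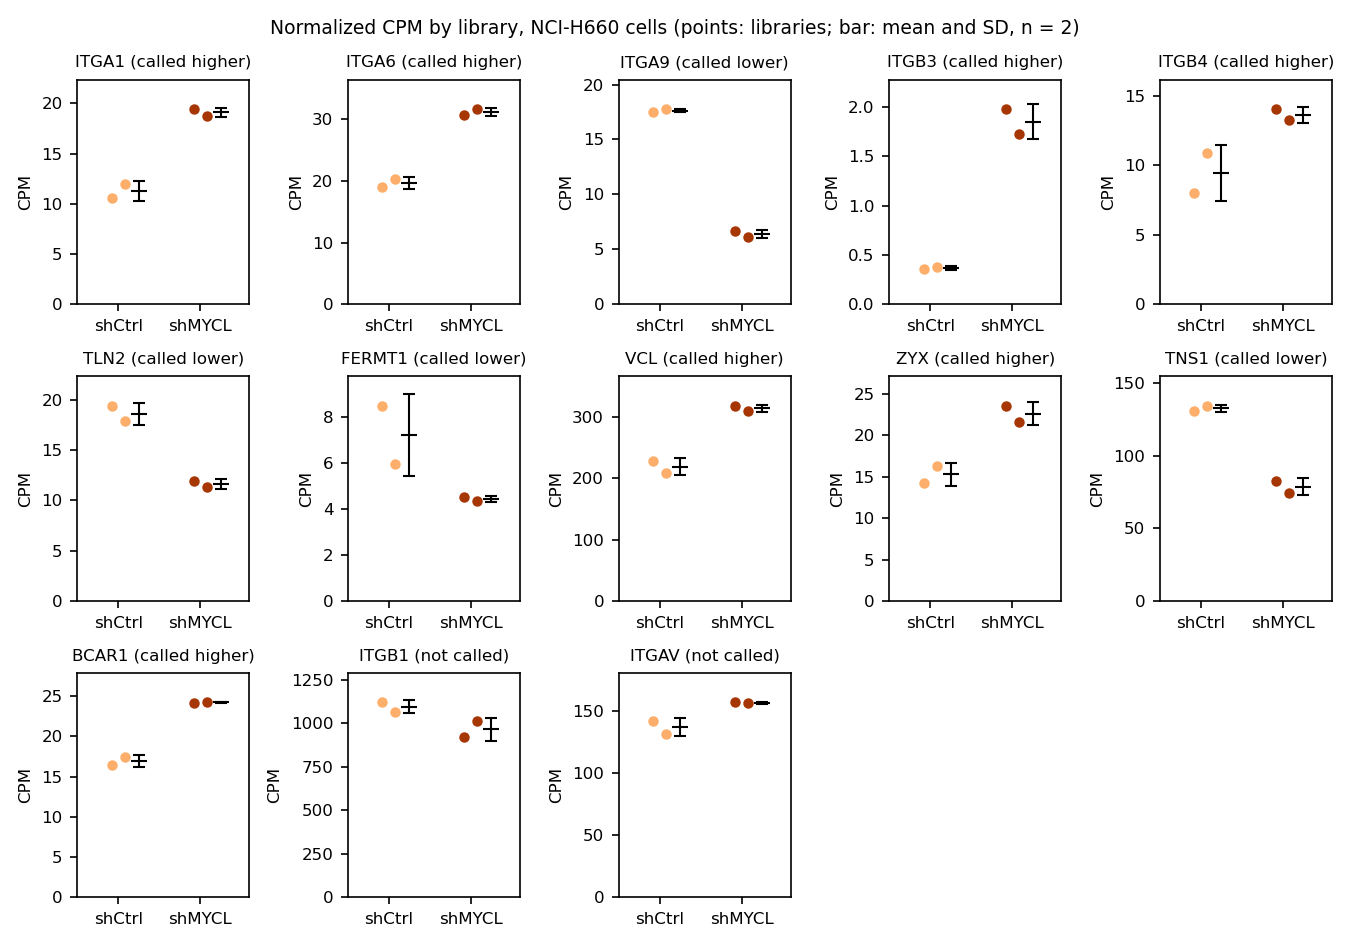
Normalized CPM (vertical axis, from 0) in the 2 shCtrl and 2 shMYCL libraries of NCI-H660 for the 11 members called and for ITGB1 and ITGAV, with points for libraries and a bar for mean and SD. ITGA9, TLN2, FERMT1 and TNS1 lie lower in both shMYCL libraries, and the shCtrl bars are widest relative to the mean for FERMT1 and ITGB4.

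The 7 members called higher became 3 without shMYCL replicate 1, and with limma on log2(TPM + 1) 4 were called higher and 2 lower. The summed fibroblast markers stood at 44.6 and 39.3 TPM in shCtrl and at 27.1 and 26.3 in shMYCL. Nearly all of that was COL1A2, while 4 of the 7 markers, COL3A1, DCN, PDGFRB and THY1, had 0 counts in all 4 libraries.

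Among 27 members tested in both lines, 4 were called in both, 2 in C4-2B alone, 5 in NCI-H660 alone and 16 in neither. Of all 14212 genes tested in both lines, 4.19% were called in both, 16.1% in C4-2B alone, 10.7% in NCI-H660 alone and 69.0% in neither, and no test was made of the members against them. Of the 4, TNS1 followed MYCL, higher with overexpression and lower with knockdown. ZYX and ITGB4 were higher and FERMT1 lower after either change of MYCL. Of these calls, both of ITGB4 (edgeR adjusted p = 0.0477 and 0.0428) and that of FERMT1 after knockdown (0.0465) lay close to the threshold. Those 3 calls were lost in most of the alternative settings. An interaction term, fitted over the 8 libraries together, tested the difference itself, where the effect of high against low MYCL is MYCL minus control in C4-2B and shCtrl minus shMYCL in NCI-H660. Of the 36 members tested, 9 had a more positive effect in C4-2B (9.59% of all 19605 genes tested did) and 1 a more negative one (8.33% of all genes). On the adjusted p alone 12 passed, against 20.2% of all genes. PTK2 and TLN1 passed it with differences of 0.48 and -0.46, under the fold minimum. This comparison uses the same libraries as the ones above and adds no new ones. MYCL itself had a log2 fold change of 8.26 with overexpression in C4-2B and of -3.06 with knockdown in NCI-H660. A difference between the lines cannot be told apart from this unequal change of MYCL. Nor can it be told apart from overexpression against knockdown, or from the vectors and culture media that differ with the line.

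**Figure D5:**
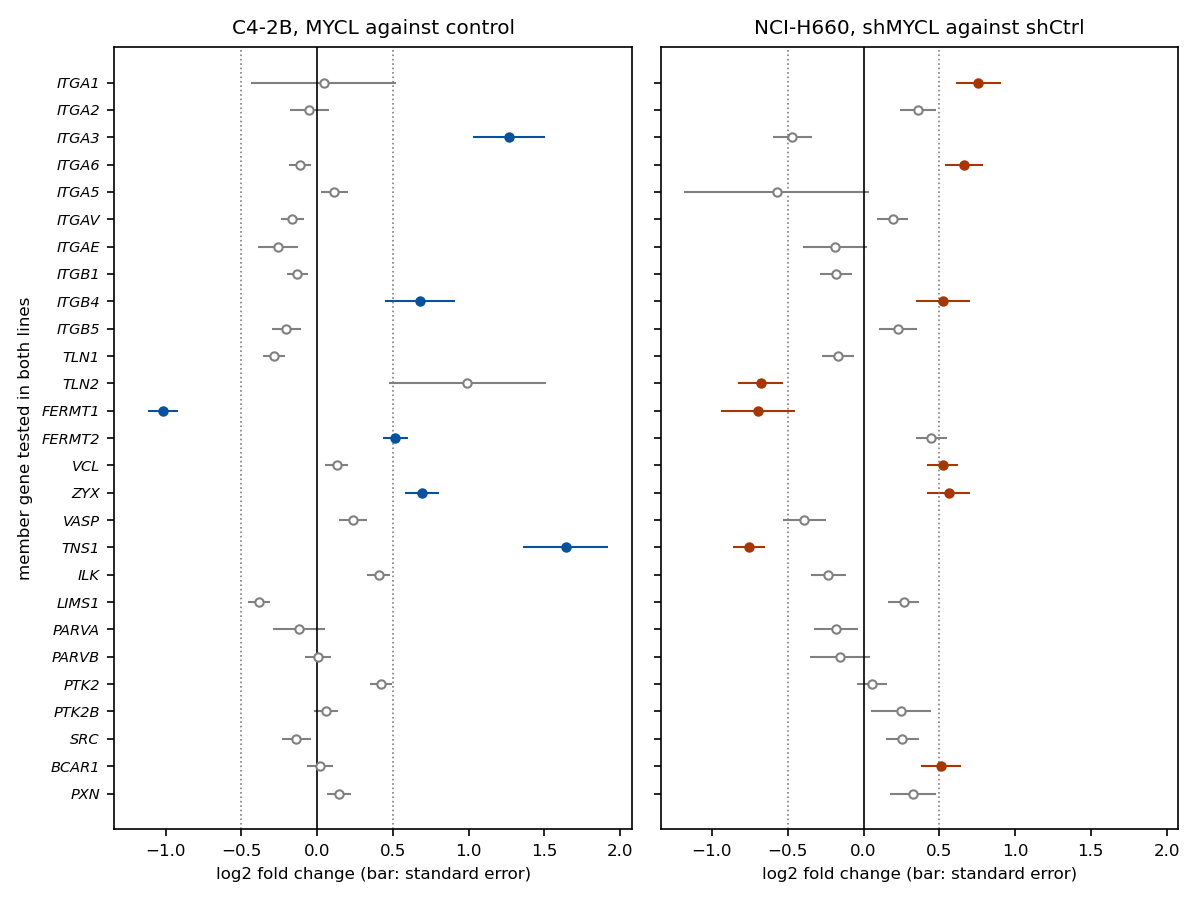
Log2 fold change with its standard error (horizontal axis, both panels to 1 scale) for the 27 members tested in both lines, left C4-2B MYCL against control and right NCI-H660 shMYCL against shCtrl. Filled points were called and dotted lines mark a log2 fold change of 0.5 in either direction. TNS1 lies on opposite sides in the panels, and ZYX, ITGB4 and FERMT1 lie on the same side.

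For ZYX the C4-2B effect of high MYCL was 0.69 and the NCI-H660 effect -0.56, a difference of 1.25 (SE 0.18, adjusted p = 0.000502). For FERMT1 it was -1.02 and 0.70, a difference of -1.71 (SE 0.24, adjusted p = 0.000407). FERMT2 had effects of 0.52 and -0.45 with a difference of 0.96 (SE 0.12, adjusted p = 0.000235), and ITGB4 gave 0.68 and -0.52 with a difference of 1.20 (SE 0.29, adjusted p = 0.0118). For these 4 genes the sign of the effect was opposite in the 2 lines. ITGB4 lost the call without C4-2B control replicate 1, at 1.05.

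VCL, ITGA6 and BCAR1 were not called in C4-2B, at 0.13, -0.11 and 0.02, and had effects of -0.52, -0.66 and -0.51 in NCI-H660. Their differences were 0.65 (SE 0.13, adjusted p = 0.00315), 0.54 (SE 0.13, adjusted p = 0.0104) and 0.53 (SE 0.15, adjusted p = 0.0228). ITGA6 lost the call without C4-2B control replicate 1 (0.53) and without NCI-H660 shCtrl replicate 1 (0.49). BCAR1 lost it in 5 of 8 omissions of a library, with values from 0.45 to 0.52: without C4-2B control replicate 1, C4-2B MYCL replicate 2, NCI-H660 shCtrl replicate 1 and either shMYCL library.

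ITGA3 and TNS1 had positive effects in both lines, that of ITGA3 in NCI-H660 under the fold minimum. ITGA3 gave 1.27 and 0.47, a difference of 0.81 (SE 0.25, adjusted p = 0.0346), which lost its call in 6 of 8 omissions, kept without C4-2B control replicate 2 and without NCI-H660 shCtrl replicate 2, and fell to 0.49 without C4-2B control replicate 1. TNS1 gave 1.64 and 0.75, a difference of 0.90 (SE 0.21, adjusted p = 0.00951), which was 0.67 and not called without C4-2B control replicate 1 and turned to -0.31 on log2(TPM + 1) and to -0.22 on centred values. On that scale the pseudocount of 1 understates the change of a low gene, and TNS1 stood at 0.231 and 0.277 TPM in C4-2B control against 23.7 and 24.7 in NCI-H660 shCtrl. ITGB3 had 1 and 0 counts in C4-2B control and 4 and 1 in C4-2B MYCL, so its fitted difference of 4.93 (SE 1.38, adjusted p = 0.0238) depends on counts at or near 0. It was not called in 5 of the 8 omissions, and was lowest, at 3.75, without C4-2B MYCL replicate 1.

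The count of 9 became 4 without C4-2B control replicate 1 and 5 without NCI-H660 shCtrl replicate 1. On log2(TPM + 1) by limma it was 2, with 3 members more negative, and on centred values 4 and 2.

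A wider list of 77 other adhesion genes, compiled from general knowledge, was read in the same fits. In C4-2B 65 were tested, of which 12 (18.5%) were called higher and 3 (4.62%) lower with MYCL, against 11.8% and 8.12% of all genes. CAV2, the partner of CAV1 in caveolae, stood at 0.246 and 0.042 CPM against 1.79 and 2.52 (log2 fold change 3.75, SE 0.64, adjusted p = 0.00218). TNS4, an epithelial tensin, stood at 1.01 and 2.39 CPM against 15.7 and 12.5 (log2 fold change 3.10, SE 0.33, adjusted p = 0.000228), and the SRC family kinase gene FYN at 1.14 and 1.13 against 4.99 and 6.63 (log2 fold change 2.35, SE 0.29, adjusted p = 0.000457). Not all tensins went this way: TNS3 was not called, and TNS2, named here after its values were seen, stood at 27.0 and 30.0 CPM against 23.0 and 19.7 (log2 fold change -0.41, adjusted p = 0.0182), under the fold minimum. KANK2, which binds talin at the rim of adhesions, fell from 48.8 and 49.1 CPM to 28.0 and 24.3 (log2 fold change -0.91, SE 0.09, adjusted p = 0.000213). KRIT1 and LIMD1 had log2 fold changes of -0.53 and -0.51. Each fell under the minimum without control replicate 2 (-0.43 for both) and without MYCL replicate 2 (-0.44 for KRIT1 and -0.38 for LIMD1).

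In NCI-H660 64 of the 77 were tested, of which 2 (3.12%) were called higher and 5 (7.81%) lower after knockdown, both below the 7.18% and 8.99% of all genes. NEDD9, a relative of BCAR1, fell from 11.0 and 15.9 CPM to 4.54 and 4.09 (log2 fold change -1.64, SE 0.22, adjusted p = 7.34e-05) while BCAR1 itself was called higher. LPP, a relative of ZYX, fell from 118.4 and 97.2 CPM to 55.5 and 39.9 (log2 fold change -1.18, SE 0.14, adjusted p = 3.68e-05), and the tetraspanin CD82 from 19.9 and 23.1 to 11.5 and 12.3 (log2 fold change -0.85, SE 0.15, adjusted p = 0.000676). ACTN4 and SHC1 were the 2 called higher, both with 0.51, and each fell under the minimum without shCtrl replicate 1 (0.43 for ACTN4 and 0.49 for SHC1) and without shMYCL replicate 2 (0.49 and 0.48). BCAR1 and NEDD9, and likewise ZYX and LPP, therefore went opposite ways within a family in NCI-H660. In C4-2B, NEDD9, LPP and CD82 were called higher with MYCL (log2 fold changes 1.42, 0.67 and 0.60, adjusted p = 0.000255, 0.000638 and 0.0261). NEDD9, LPP and CD82 thus followed MYCL in both lines, and ZYX and LPP both rose in C4-2B. CD9, also called lower in NCI-H660, and PAK2 were not called in C4-2B (0.34 and -0.26).

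Between the control lines 66 of these genes were tested, with 28 (42.4%) called higher and 17 (25.8%) lower in NCI-H660, against 37.4% and 34.2% of all genes. TGFB1I1, a paralog of PXN also called HIC5, had 0 counts in C4-2B control and 172 and 228 in NCI-H660 shCtrl, at least 79.5-fold higher. PAK1 had 2 and 3 counts against 1070 and 1227, and FYN stood at 1.22 and 1.21 CPM against 89.4 and 99.5 (log2 fold change 6.28, SE 0.15, adjusted p = 1.26e-11). EFS, an adaptor related to BCAR1, had 1059 and 775 counts in C4-2B control and 0 in both NCI-H660 shCtrl libraries, at least 206-fold lower, and TNS4 and ITGAL were at least 10.8-fold and 6.96-fold lower. NCI-H660 shCtrl thus had lower PXN and BCAR1 beside a higher TGFB1I1 and 0 counts of EFS. Other relatives of these genes went both ways. LPXN, related to PXN, stood at 4.51 and 3.97 TPM in C4-2B control and at 2.22 and 2.03 in NCI-H660 shCtrl. NEDD9 stood at 2.00 and 1.98 TPM against 4.95 and 7.04. In the interaction 15 of 70 (21.4%) were more positive in C4-2B and 3 (4.29%) more negative, against 9.59% and 8.33% of all genes.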

How the data were processed

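Poly(A) RNA of the 8 libraries was sequenced in paired ends on the study's side. The authors deposited estimated counts per gene, not normalized between libraries, on genome build hg38 (22.1% of nonzero values were not whole to within 0.01). The authors also deposited TPM values for 65535 of the 78691 genes, and TPM alone allows levels of different genes to be compared. The study describes making TPM from counts with gene lengths from Ensembl. Some deposited values do not follow from the counts with a fixed length. CAV1, with rounded counts of 1 and 1 in the NCI-H660 shMYCL libraries of similar depth, had 0.04512 and 0.3175 TPM. How the deposited TPM were made is not settled here. The aligner, the counter and strand handling are not given in the sources used here.

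Counts were rounded and fitted over all genes in edgeR 4.0.16 (R 4.3.3) with TMM scaling, its default expression filter and the quasi-likelihood test, each line alone as in the study, with Benjamini-Hochberg adjustment. The CPM values are TMM-normalized within each fit, so they differ slightly between comparisons. The standard error of a log2 fold change was derived from its test statistic. With 2 libraries a group an exact permutation test of 1 gene cannot go below p = 0.33, so only the fits across genes are given. Groups without overlap were also found among members not called, and their share over all genes was not counted. Non-overlap therefore describes the libraries and adds no support to a call. Ratios from 1 to 5 counts carry exact 95% intervals, and libraries at 0 a limit of 3 counts in 1 library, which cover counting error only. Replicates of every group differed by more than sampling noise. The fits were tested on simulated data.

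The members and gene lists were chosen with earlier results of these data known. Full statistics are given for every member called in a MYCL comparison, for ITGB1 and ITGAV, for the 6 called members with the largest change per direction between lines, and for the 3 largest per direction among the other adhesion genes; further values describe members named for their role. Alternatives were DESeq2 1.42.0, other scaling, filters and fold minimums, limma 3.58.1 on log2(TPM + 1), a replicate block, 1 fit of all groups and omission of each library. Gene positions and exon overlaps are from GENCODE 44, and promoters from RefSeq. TP63, a basal marker, was not analysed here.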

Additional observations from a re-analysis of the deposited data

Results flagged for a closer look

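These results were picked out because the effect of high against low MYCL differed between C4-2B and NCI-H660 in the interaction test (edgeR, adjusted over all genes). Among members the differences, in log2 units and C4-2B minus NCI-H660, were 0.81 for ITGA3, 0.54 for ITGA6, 4.93 for ITGB3, 1.20 for ITGB4, -1.71 for FERMT1, 0.96 for FERMT2, 0.65 for VCL, 1.25 for ZYX, 0.90 for TNS1 and 0.53 for BCAR1. FERMT1 and ZYX were called in all 19 alternatives and FERMT2 in 18.

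Among the other adhesion genes, LIMD1, a LIM protein related to zyxin, gave -0.90 (SE 0.16, adjusted p = 0.00209), with effects of -0.51 in C4-2B and 0.39 in NCI-H660. The kinase gene PAK2 gave -0.81 (SE 0.15, adjusted p = 0.00208), with -0.26 and 0.54, and KRIT1 gave -0.70 (SE 0.17, adjusted p = 0.0125), with -0.53 and 0.17. KRIT1 was not called without C4-2B control replicate 2 (-0.59), C4-2B MYCL replicate 2 (-0.60) or NCI-H660 shMYCL replicate 2 (-0.63).

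Among the 15 other adhesion genes with a more positive difference, the 3 with the largest are given here, and all 3 rest on very low counts. The other 12 had differences from 0.53 to 2.78, and 10 of them had at least 10 counts in every library. ELMO1 gave 4.38, with 1 and 0 counts in C4-2B control, 6 and 3 in C4-2B MYCL, 5 and 13 in NCI-H660 shCtrl and 19 and 11 in NCI-H660 shMYCL, and the call was lost whichever of the 8 libraries was left out. TGFB1I1 gave 4.41, with 0 and 0 counts in C4-2B control and 1 and 3 in C4-2B MYCL against 172 and 228 in shCtrl and 171 and 207 in shMYCL, and it was lost in 6 of 8 omissions, at the lowest 3.49 without C4-2B MYCL replicate 2. LIMS2, a paralog of LIMS1, gave 4.43, with 4 and 2 counts, 9 and 11, 2 and 4, and 8 and 15 in the same order of groups, and it was lost in 5 of 8 omissions, at the lowest 3.94 without NCI-H660 shMYCL replicate 2.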

How the results depend on the processing

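Of the counts of members called, 103 values under alternatives stayed within 1.5 times and 31 moved further, and the cause of the latter was not tested unless the alternative itself sets it. In C4-2B the 6 called higher became 2 by limma on log2(TPM + 1), 1 with a pseudocount of 0.1, 0 without a filter on TPM (limma, 2 at an unadjusted p under 0.05), 2 on values centred on library medians (chosen after the data were seen) and 3 at a fold minimum of 1, and the 1 called lower became 3 with no minimum. In NCI-H660 the 7 called higher became 4, 3, 0 (limma, 5 unadjusted), 4 and 1 in that order, and the 4 called lower 2, 2, 0 (limma, 2 unadjusted), 2 and 1. In the interaction the 9 more positive became 2, 2, 3, 4 and 3 in that order, and the 1 more negative became 3, 2, 3 and 2 on the TPM scales and 2 with no minimum. The TNS1 interaction reversed, to -0.31 on log2(TPM + 1) with and without the filter and to -0.22 on centred values. Leaving out 1 library gave 4 to 5 higher in C4-2B, 3 to 8 higher and 3 to 5 lower in NCI-H660, and 4 to 11 more positive and 1 to 2 more negative in the interaction. Between the lines no count moved by over 1.5 times (11 to 21 higher, 8 to 13 lower). The log2(TPM + 1) scale moved the median of all genes to -0.14 in C4-2B, 0.57 between lines and -0.11 in the interaction. DESeq2 called 4 higher and 1 lower in C4-2B, 7 and 3 in NCI-H660, 15 and 12 between lines and 8 and 1 in the interaction.

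With the replicate number as a block, 7 members were called higher and 1 lower in C4-2B, 8 and 4 in NCI-H660, 15 and 12 between lines and 9 and 1 in the interaction, none over 1.5 times the count without it. The deviations of libraries with the same number correlated at 0.0262, 0.0211 and 0.0194 in the 3 comparisons of a pair of groups, so the numbers were not taken to pair the libraries. Depth limited genes under about 20 counts, such as ITGB3, CAV1 and the untested subunits, for which small differences were not detectable.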
